A study of Mus musculus with 3 samples.

Results

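The COP9 signalosome is the complex that removes the ubiquitin-like protein NEDD8 from cullins, and its subunit genes were followed across 3 CUT&Tag peak lists of mouse brown preadipocytes. The 9 genes were Gps1, Cops2, Cops3, Cops4, Cops5, Cops6, Cops7a, Cops7b and Cops8, out of 21883 protein-coding genes on chromosomes 1 to 19, X and Y. The family was chosen by name with its peaks in these lists, the induced one at Cops4 among them, already known, so its counts are a description and carry no test. A peak was assigned to a gene by its summit, the position of highest signal: within 1 kb of either end of the gene (a gene-end peak), inside the gene, or as the nearest one on the chromosome.

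In CUT&Tag an antibody holds a transposase at a chromatin protein, and the DNA fragments it releases mark where that protein sat. The first library was made with an antibody against ZFP410, a zinc finger transcription factor, from untreated preadipocytes. The second used it on cells kept in brown adipocyte differentiation medium for 3 days (the induced library), and the third used IgG, a nonspecific antibody, on untreated cells. The cells, negative for lineage markers and positive for CD29, CD34 and Sca1, had been sorted from brown fat of male wild-type C57BL/6 mice and cultured. Neither the age of the mice nor any pooling of animals is given in the sources used here. IgG on induced cells was not analysed here.

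With 1 library a group there is no replicate spread, and p-values are not given. Peak lists carry no expression values, and the labelled cell type was not checked against markers. There were 3256 untreated, 7475 induced and 480 IgG peaks. Depth recovered from the peak values was 2.01 times higher in the induced than in the untreated library, which in turn had 7.02 times the depth of IgG. These depth ratios hold only if all 3 lists were called against the same control, which is not given. The genome-wide backgrounds give 2.24 for induced over untreated and less than 7.02 for untreated over IgG. Expected fragments below are scaled by these backgrounds. Fragments at a summit are compared with the genome-wide background of the same library, which was 0.110 fragments for untreated cells, 0.246 for induced cells and 0.0231 for IgG. At that background the weakest peaks held 3, 4 and 2 fragments, so a site had to reach about these numbers to be listed at all.

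Cullin-RING ligases are the largest family of ubiquitin ligases, and they are switched on when NEDD8 is attached to the cullin. The COP9 signalosome takes NEDD8 off again, which lets the ligase exchange the receptor that picks its substrates. Cops5, also known as Jab1, is the metalloprotease that cuts the bond, and Cops6 is its inactive partner. The other subunits carry PCI domains, which build the body of the complex and hold the cullin, and Cops7a and Cops7b are paralogs that fill the same position.

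ZFP410 peaks stood at the ends of 3 of the 9 genes in the induced list (Cops4, Cops5 and Cops7b), at 0 of 9 in the untreated list and at 0 of 9 in the IgG list. The share of all coding genes with one was 8.43% (induced), 3.73% (untreated) and 0.0366% (IgG). Peaks at an end in the induced and not the untreated list were held by 6.03% of all coding genes, and peaks at an end in both by 2.40%. One more gene, Cops7a, carried a peak in both ZFP410 lists that lay inside the gene, at a transcript start. Where a −log10 q of 5 or more was required, the gene-end count after induction was 1 of 9 (Cops4), beside 4.42% of all coding genes, and the untreated peak of Cops7a was lost. The other 5 genes, Gps1, Cops2, Cops3, Cops6 and Cops8, had no ZFP410 summit inside them or within 1 kb of an end. Counting peaks inside the gene as well, 4 of 9 genes were occupied in the induced, 1 of 9 in the untreated and 0 of 9 in the IgG list, beside 15.8%, 7.82% and 0.530% of all coding genes. The genes of the complex had a median length of 24.2 kb, against 17.2 kb for all coding genes. Longer genes have more room for a peak inside, and the part of length in these counts was not tested.

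**Figure D1:**
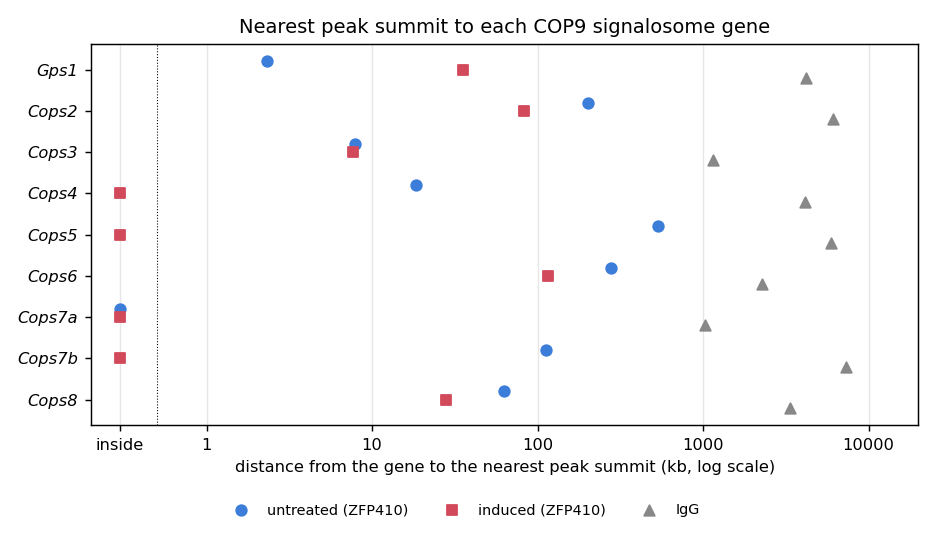
Distance in kb (log scale) from each of the 9 genes to the nearest peak summit in the untreated ZFP410, induced ZFP410 and IgG lists, 1 point for each gene and list, with summits inside the gene set at the left. Cops4, Cops5, Cops7a and Cops7b have an induced summit inside them and Cops7a an untreated one, while each IgG point lies more than 1000 kb away.

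Cops4 held the strongest peak of the family. Its protein is one of the arms that contact the cullin ligase and pass its binding on to the catalytic pair. The gene lies on chromosome 5 at 100518295 to 100547802 (mm10), and the induced peak covered 100518224 to 100518647 with 18 summit fragments. The authors' fold was 15.2, with a −log10 q of 24.0, which ranked 304 of 7475 peaks. At 424 bp the peak was longer than the median induced peak of 240 bp. Its summit sat 45 bp inside the gene and 31 bp downstream of the RefSeq transcript start at 100518309. No other coding gene had an end within 1 kb of the summit.

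The promoter window of Cops4 is shown because the peak lies on its transcript start. It runs from 250 bases before the start to 50 bases from it on the plus strand (RefSeq, GRCm38.p6, chr5:100518059-100518358). Capitals mark the matches to CCAAT, the letters bound by the factor NF-Y, read on either strand.
Cops4 promoter: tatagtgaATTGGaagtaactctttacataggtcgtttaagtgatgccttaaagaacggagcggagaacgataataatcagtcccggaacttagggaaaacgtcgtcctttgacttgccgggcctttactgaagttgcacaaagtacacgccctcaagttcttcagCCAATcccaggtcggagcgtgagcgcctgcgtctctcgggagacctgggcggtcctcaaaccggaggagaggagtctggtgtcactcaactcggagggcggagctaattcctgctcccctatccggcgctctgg

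The CCAAT match nearer to the start begins at base −84, inside the peak and 115 bp from its summit, and the other begins at −242, upstream of the peak. Cops4 was the 1 gene of the 8 with a promoter window in the table that held CCAAT, which 38.2% of all 21262 windows of coding genes hold. Neither the ZFP410 core searched here (CCCATAA) nor CGGAAG, the core bound by ETS factors, is in the Cops4 window.

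The untreated list had no peak at Cops4. At equal enrichment 8.03 fragments would be expected there in the untreated library, above the 3 of the weakest untreated peaks at the genome background. The number of untreated fragments at an unlisted site is not known. With 2 of them the enrichment ratio of induced over untreated would be 4.02, with a 95% exact binomial interval of 0.962 to 35.7, which includes 1. With 1 the interval would run from 1.27 to 335, and with 0 it would start at 1.96, both above 1. Whether the libraries differ at Cops4 beyond counting error thus depends on a count that the list does not give. In the IgG library 1.69 fragments would have been expected, below the 2 of the weakest IgG peaks, and the IgG list says little at this depth.

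The nearest untreated summit to Cops4 lay 18450 bp upstream of the gene, inside Lin54, a DNA-binding subunit gene of the DREAM complex. This peak, at 100499665 to 100499894, held 3 fragments and overlapped an induced one of 5 fragments at 100499865 to 100500110. Their ratio over the genome background, taken between separate summits, was 0.744 (95% exact binomial interval 0.145 to 4.79). The untreated summit was 794 bp and the induced one 616 bp downstream of a Lin54 transcript start. So peaks near this Lin54 start were listed in both libraries, and one at the Cops4 start in the induced library.

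Among the 1845 coding genes with an induced gene-end peak, 133 held more fragments than Cops4 and 18 genes, Cops4 included, held exactly 18. The median gene held 7. By the rule set for likeness (the nearest fragment number, with no untreated gene-end peak) 6 genes tied with it at 18 fragments, Itga10, Lsm3, Xpc, Ugdh, Zbtb20 and Cactin. Itga10, Lsm3 and Xpc also had its fold of 15.2, whereas Ugdh stood at 8.39, Zbtb20 at 5.53 and Cactin, the 1 beyond the limit of 5 genes, at 3.32. Lsm3 and Xpc had identical peak values, down to a length of 617 bp, so they may share 1 peak. The measure compares 1 peak per gene in 1 library, and genes that share a peak are each counted.

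**Figure D2:**
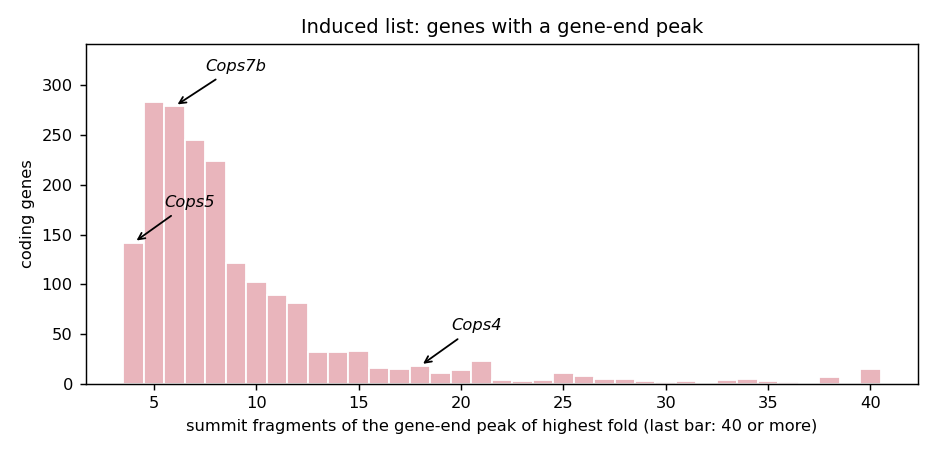
Number of coding genes (vertical axis) by the summit fragments of their induced gene-end peak of highest fold (horizontal axis, the last bar holding genes at 40 or more). Cops5 at 4 fragments is in the lowest bar, Cops7b at 6 lies below the median of 7, and Cops4 at 18 lies in the upper tail.

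Cops7a was the gene of the complex listed in both ZFP410 libraries. It encodes 1 of the alternative forms of the CSN7 subunit, a PCI protein that bridges the rest of the body. Its gene model spans 39.5 kb on chromosome 6 (124958445 to 124997903). Both RefSeq transcript starts of the promoter table, at 124965512 and 124965266 on the minus strand, lie inside it. They are 7067 and 6821 bp from its nearer end, which is the lower and, on this strand, the downstream one. The untreated peak, at 124965464 to 124965703, held 4 fragments with a fold of 4.50 and a −log10 q of 2.81. The induced peak, at 124964970 to 124965742, held 8 fragments with a fold of 7.22 and a −log10 q of 7.19.

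Both summits fell on the upstream transcript start. The untreated one was 37 bp before it and the induced one 15 bp after it, 52 bp apart. The untreated peak lay entirely within the induced one, which was 773 bp long against 240 bp and also covered the second start. Over the genome backgrounds the ratio of induced to untreated enrichment was 0.893 (95% exact binomial interval 0.239 to 4.05), so no difference was detectable at this depth. The IgG library would have held 0.839 fragments at the untreated and 0.749 at the induced enrichment, below what was listed there.

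The window of the upstream Cops7a start is shown because both summits lie in it (RefSeq, GRCm38.p6, chr6:124965463-124965762, minus strand). Capitals mark the single match to CCCATAA, a core of the sequence that ZFP410 is known to bind, and the 4 matches to CGGAAG.
Cops7a promoter: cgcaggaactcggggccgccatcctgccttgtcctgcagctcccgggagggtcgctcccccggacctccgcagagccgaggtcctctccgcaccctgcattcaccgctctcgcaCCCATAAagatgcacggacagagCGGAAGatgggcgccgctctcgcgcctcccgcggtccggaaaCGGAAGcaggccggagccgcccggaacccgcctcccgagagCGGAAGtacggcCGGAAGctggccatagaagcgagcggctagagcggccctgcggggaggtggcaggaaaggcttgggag

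The CCCATAA match begins at base −136 from the start, under both peaks, 99 bp from the untreated and 151 bp from the induced summit. The CGGAAG matches begin at −113, −71, −30 and −18, and those at −30 and −18 lie 7 and 19 bp from the untreated summit. Of the 8 genes of the complex with a window, Cops7a was the 1 that held CCCATAA.

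The Cops7a peak was missed by the gene-end rule because both ends of the gene model lie more than 1 kb from these starts. Measured from RefSeq transcript starts, 3 of the genes (Cops4, Cops7a and Cops7b) had an induced summit within 1 kb and 1 (Cops7a) an untreated one. Of 17491 coding genes with a start in the table, 8.89% had such an induced summit, 3.94% such an untreated one and 0.0172% one of IgG, which had 0 at the COP9 genes. A summit near a start but near no gene end, as at Cops7a, was found for 1.02% of these genes in the induced and 0.515% in the untreated list. Overlapping untreated and induced peaks inside a gene or at its end were held by 4.26% of all coding genes and by Cops7a alone among the 9.

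Cops7b, the other form of the CSN7 subunit, had a peak in the induced list that it shared with Pde6d, which encodes a lipid-binding chaperone of prenylated proteins. The peak, on chromosome 1 at 86582550 to 86582815, held 6 fragments with a fold of 5.62 and a −log10 q of 4.38. The genes overlap by 140 bp there, and the summit lay inside both, 31 bp from the end of Cops7b (86582646 to 86606828). It was 108 bp downstream of the Pde6d start and 244 bp upstream of the Cops7b start, which lie 136 bp apart on opposite strands. The peak covered the Pde6d start and ended before that of Cops7b. With the same enrichment the untreated site would have held 2.68 fragments, under the 3 of the weakest listed peaks, so its absence there says little.

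The Cops7b window is shown for its pair of matches to TACANNTCC, part of the sequence bound by the promoter factor Zfp143, a pattern chosen after this window had been read (RefSeq, GRCm38.p6, chr1:86582671-86582970, plus strand). Capitals mark the matches.
Cops7b promoter: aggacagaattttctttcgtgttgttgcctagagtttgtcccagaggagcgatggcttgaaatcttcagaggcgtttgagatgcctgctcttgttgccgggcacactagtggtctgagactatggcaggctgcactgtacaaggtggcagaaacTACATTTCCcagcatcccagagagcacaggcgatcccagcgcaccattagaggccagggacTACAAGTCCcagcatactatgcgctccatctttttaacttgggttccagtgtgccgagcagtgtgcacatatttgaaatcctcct

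The matches begin at −96 and −35 and lie just outside the listed peak, which ends upstream of both. TACANNTCC is in 4.84% of all windows and in no other gene of the complex. Cops7b also differed in base composition: its window had an observed over expected CpG ratio of 0.410, the lowest of the 10 windows of the complex, whose median was 0.919. Its Cops7a counterpart had 0.898 at the upstream start.

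Cops5, the catalytic subunit, had the weakest of these peaks. The induced peak at 10037964 to 10038133 on chromosome 1 held 4 fragments with a fold of 4.01 and a −log10 q of 1.93. It ranked 6539 of 7475, tied with 580 peaks in all at that fold. The summit lay 110 bp inside the upper end of Cops5 (10024600 to 10038159) and 67 bp from the lower end of Cspp1, a centrosome and spindle protein gene that overlaps Cops5 by 44 bp. As at Cops7b, one peak served a pair of overlapping genes. The untreated library would have held 1.79 fragments at equal enrichment, and the nearest untreated summit was 534167 bp away. Cops5 and Cspp1 have no window in the promoter table.

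**Figure D3:**
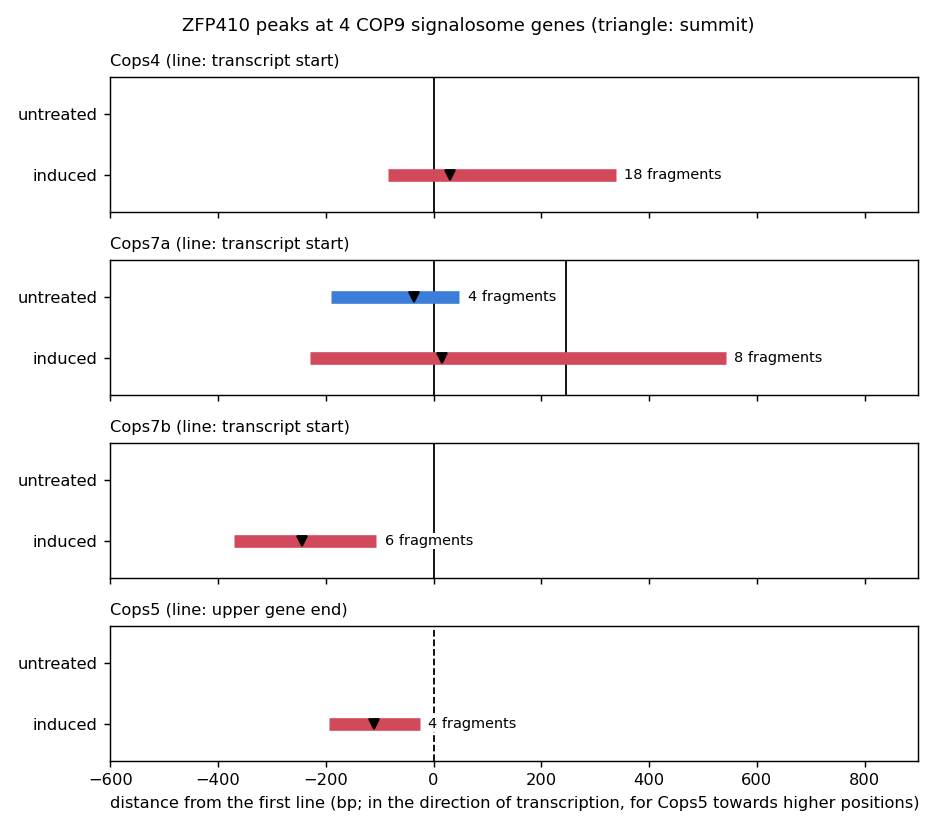
ZFP410 peaks of the untreated and induced lists (horizontal bars, triangle at the summit, summit fragments beside them) at Cops4, Cops7a, Cops7b and Cops5, by distance in bp from the transcript start in the direction of transcription, or from the upper gene end for Cops5. The Cops4 and Cops7a summits lie within 40 bp of a start, the Cops7b summit 244 bp upstream, and the untreated rows are empty but for Cops7a.

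Cops6, the inactive partner of Cops5, had no peak nearby: the nearest summits were 278998 bp away in the untreated and 116305 bp away in the induced list. Cops2, the arm that grips the cullin and its RING protein, had them at 200789 and 82492 bp. For Cops8, the smallest of the PCI subunits, they were 63016 and 27908 bp off, at peaks of 6 fragments in each list that lay between genes.

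Gps1 and Cops3, subunits of the scaffold, had peaks nearer by that belonged to neighbours. The untreated peak closest to Gps1 held 3 fragments and lay 2324 bp beyond the gene, inside the tRNA modification gene Dus1l, which overlaps Gps1 by 1544 bp. The closest induced summit was 35404 bp away, 41 bp from the start of Fasn, the fatty acid synthase gene, with 8 fragments. Beyond the lower end of Cops3, 7889 and 7662 bp away, stood untreated and induced peaks of 5 and 13 fragments that overlapped each other. The untreated summit was 133 bp downstream and the induced one 94 bp upstream of the start of Flcn, the folliculin gene. The induced peak was 991 bp long. The Flcn ratio over the genome background, taken between these separate summits, was 1.16 (95% exact binomial interval 0.388 to 4.16). No summit lay near the Cops3 transcript start, which is 8478 bp inside its gene model.

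Over the 9 genes the median distance to the nearest summit was 63016 bp in the untreated and 7662 bp in the induced list. All coding genes gave 192929 and 82246 bp. The closest IgG summit to any of the 9 was 1026967 bp away, at Cops7a. With a threshold of 1 kb, the genes just inside it stood at 31, 45 and 110 bp (Cops7b, Cops4 and Cops5), and the nearest outside it was Gps1 at 2324 bp in the untreated list.

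The promoter table held 10 windows for 8 of the 9 genes, which allowed their letters to be set beside those of all windows. CGGAAG, searched on both strands, was in windows of 6 genes (Cops2, Cops3, Cops6, Cops7a, Cops8 and Gps1) and in 21.1% of all windows. Of these 6, Cops7a alone lay under a listed peak, while Cops4 and Cops7b lay under one without it. GGGCGG, the GC box bound by Sp1 and its relatives, was in windows of 5 genes (Cops4, Cops6, Cops7a, Cops8 and Gps1) and in 46.2% of all. TGACGT, shared by CREB and ATF sites, was in none of the 8 and in 8.49% of all windows.

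Shares of all windows and of those under ZFP410 peaks are given as a description, with no test of their difference. CCCATAA was in 2.41% of all windows, in 2.73% of the 549 under an untreated peak (95% Wilson interval 1.66 to 4.46) and in 2.46% of the 1421 under an induced one (1.78 to 3.41). CGGAAG was in 41.5% and 40.6% of windows under untreated and induced peaks, GGGCGG in 75.2% and 72.2%, TGACGT in 18.2% and 17.2%, and TACANNTCC in 5.10% and 8.23%. Windows under peaks were also richer in CpG, with a median observed over expected ratio of 0.841 (untreated) and 0.837 (induced) against 0.567 for all, and the part of composition in these shares was not tested. Of the 10 windows of the complex 90.0% exceeded a ratio of 0.6, as did 87.2% of windows under induced peaks and 47.6% of all. High CpG content was thus common to the complex, with or without a peak. The 5 genes with no ZFP410 peak had window ratios between 0.693 and 1.13.

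**Figure D4:**
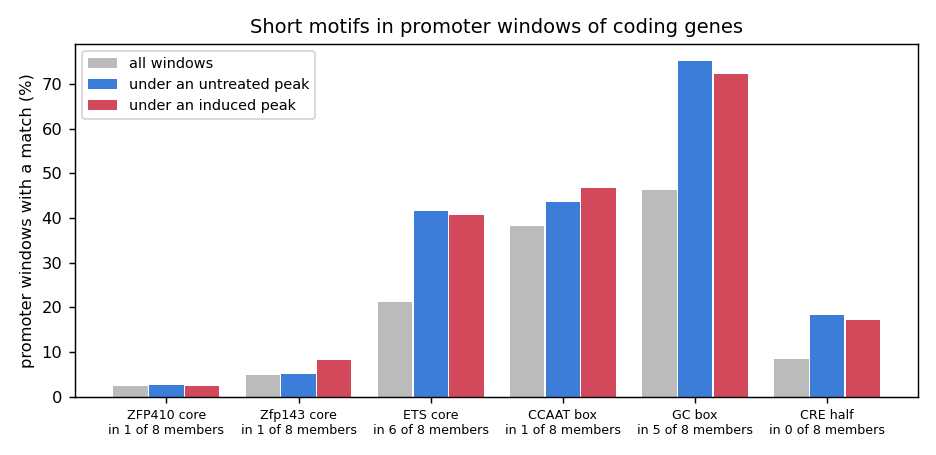
Percentage of promoter windows (250 bases before to 50 from a RefSeq transcript start) with a match to each short motif on either strand, for all 21262 windows of coding genes, the 549 under an untreated and the 1421 under an induced ZFP410 peak. The ZFP410 core stands at 2.41% to 2.73% in each set, and the axis labels give how many of the 8 genes of the complex with a window hold each motif.

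Genes that act with the COP9 signalosome were taken from lists of named genes. The neddylation cycle list (24 genes) holds NEDD8, its activating and conjugating enzymes, the cullins with their RING partners, and the exchange and ligation cofactors. Of these 7 had a gene-end peak after induction, 2 an untreated one (Ube2f and Rnf7) and 0 an IgG one, beside the 8.43%, 3.73% and 0.0366% of all coding genes. The median induced peak of the 7 held 7 fragments, equal to that of all coding genes with such a peak.

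Ube2f, a NEDD8-conjugating enzyme that works with Rnf7 on the cullin Cul5, had the strongest site of this list. It held 7 untreated and 23 induced fragments in overlapping peaks, a ratio of 1.47 over the genome background (95% exact binomial interval 0.609 to 4.05). The induced local background at Ube2f, not used in this ratio, was 0.690 fragments against 0.246 genome-wide. Rnf7 held 3 and 6, a ratio of 0.893 (0.191 to 5.52). Ube2m, the NEDD8-conjugating enzyme for the other cullins, held 10 induced fragments and was not in the untreated list. Dcun1d3, a cofactor of NEDD8 ligation, held 9 in a peak shared with Lyrm1, and Rbx1, the main RING partner of cullins, held 7. The remaining pair, Nae1 and Dcun1d2, held 5 each in peaks shared with Car7 and Tmco3. At equal enrichment Ube2m would have held 4.46, Dcun1d3 4.02 and Rbx1 3.12 untreated fragments, close to the lowest called number of 3. Rnf7, Nae1 and Dcun1d2 were named here after their values had been seen. None of the cullin genes and neither Nedd8 nor Cops9, the small late-found subunit of the complex, had a gene-end peak.

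Of 24 cullin adaptor and receptor genes 5 had an induced gene-end peak, among them Kctd9, Dtl, Klhl12 and Spop, and 2 an untreated one (Keap1 and Dtl). That was 20.8% (95% Wilson interval 9.24 to 40.5) and 8.33% (2.32 to 25.8), beside 8.43% and 3.73% of all coding genes. Kctd9, a BTB-domain protein gene, held 33 induced fragments in a peak shared with Cdca2. It had no untreated gene-end peak, where 14.7 fragments would be expected at equal enrichment. That number does not allow for the local background at Kctd9, which was 1.03 fragments in the induced list. Dtl, a receptor that targets replication factors, held 7 untreated and 29 induced fragments in overlapping peaks shared with Ints7. The ratio over the genome background was 1.85 (95% exact binomial interval 0.793 to 5.00). It does not allow for the local background at Dtl, which was 3.25 fragments in the induced list against 0.246 genome-wide. Klhl12, a BTB-Kelch receptor gene, held 6 induced fragments. Spop, at 9 fragments with a fold of 3.38, and Keap1, the sensor of oxidative stress, at 4 untreated fragments, were named after their values had been seen. A transcript start was in the promoter table for 17 of these genes. Measured from these starts instead, 4 of the 17 were in the untreated list (Skp2, Keap1, Dcaf1 and Dtl) and 4 in the induced one (Skp2, Klhl12, Spop and Dtl). The shares of all coding genes with a start were 3.94% and 8.89%.

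The lid of the proteasome and the translation factor eIF3 are built from PCI and MPN proteins like the COP9 signalosome. Of the 17 genes of both, 2 had an induced gene-end peak, Psmd12 with 12 and Psmd3 with 7 fragments, and 0 an untreated one. The induced share was 11.8% (95% Wilson interval 3.29 to 34.3). Of all coding genes 8.43% had an induced and 3.73% an untreated one. The differences in share between these lists and the COP9 genes were not tested. Psmd12 and Kctd9 were known from earlier results of these data when the lists were drawn up.

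**Figure D5:**
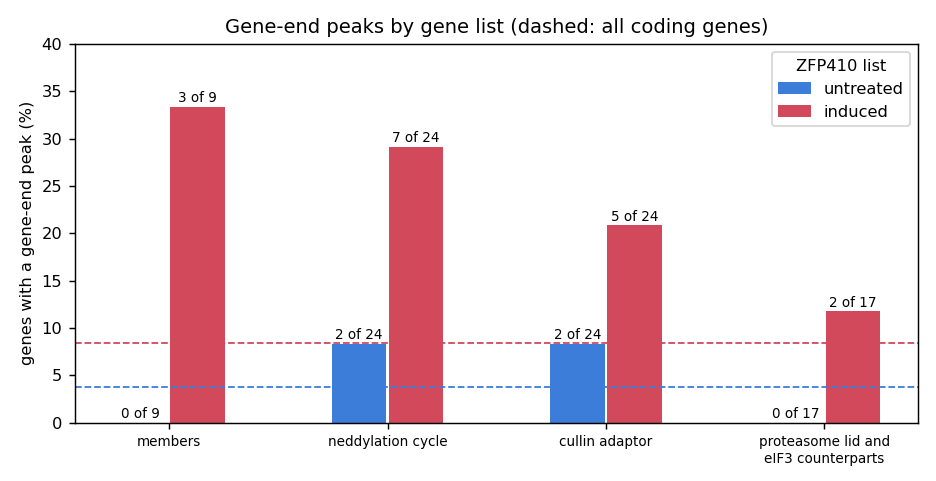
Percentage of genes with a gene-end peak (bars, with the number of genes above) in the untreated and induced ZFP410 lists, for the 9 COP9 genes and 3 related gene lists, with dashed lines at 3.73% and 8.43% for all coding genes. Each induced bar is taller than the untreated one, in libraries whose recovered depth differed 2.01 times.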

How the data were processed

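ZFP410 and IgG CUT&Tag peaks of 3 libraries were analysed, 1 per group, with groups taken from the labels. The submitters' processing notes name mm10 and the tools Bowtie2 (2.2.6), MACS2 (2.1.1) and Picard. How duplicates were handled, and the control, is not given in the sources used here. Deposited lists give a score (10 times −log10 q, not used), the fold over local background, the −log10 of the p-value and q-value, and the summit, and the deposited peak names carry a q threshold of 0.1. Fold and −log10 values describe peaks within a list.

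Summit fragments and local background were recovered from the deposited fold and −log10 p, taking the fold as fragments plus 1 over background plus 1 and p as a Poisson tail. This worked for 3255, 7473 and 480 peaks of the untreated, induced and IgG lists, within 0.001 in −log10 p. On peaks simulated with these same formulas it returned the planted number for 100% of 982, 983 and 898. That checks the inversion and not whether the formulas are those of the caller. Depth ratios came from the spacing of local backgrounds and assume the same control for all lists. Ratios were scaled by genome background (2.24, induced over untreated). Their 95% exact binomial intervals cover counting error only.

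Gene ends came from RefSeq GRCm38.p6, which has the coordinates of mm10. All 9 genes matched by symbol, and 8 matched the promoter table. Exons and introns were not analysed here. One gene of the adaptor list is not reported here by name. Named genes were all 9 members, Cops9, genes sharing a member's peak, up to 4 occupied genes of each list by fold, and up to 5 genes most like a member (given for Cops4, since Cops5 and Cops7b tied with 118 and 225 genes). Members and lists were chosen with earlier results of these data known. Alternatives covered q, fold, the window, the overlap and the scale. Python 3.11.15, numpy 2.4.6, scipy 1.17.1 and pandas 2.3.3 were used.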

Additional observations from a re-analysis of the deposited data

How the results depend on the processing

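No paired analysis was possible because each group held 1 library. At a −log10 q of at least 5, gene-end counts of the COP9 genes fell to 1 in the induced list (Cops4), beside 4.42% of all coding genes. Counting peaks inside genes, they were 2 (Cops4 and Cops7a) in the induced and 0 in the untreated list. The neddylation list then had 4 induced and 0 untreated genes with a gene-end peak and the adaptor list 3 and 0. Of all coding genes 4.42% had an induced and 1.00% an untreated one at this setting. At a fold of at least 5, 0 COP9 genes had an untreated peak inside or at an end. By gene-end peaks the neddylation list then had 1 untreated gene, and the adaptor list had 1 untreated and 3 induced. The gene-end shares of all coding genes were 1.94% (untreated) and 5.86% (induced). With a window of 500 bp both of these lists had 1 untreated gene, beside 2.99% of all coding genes. Measured from RefSeq transcript starts, a choice made after seeing the data, the untreated list held 1 of 8 COP9 genes (Cops7a) and 4 of 17 adaptor genes. The induced list held 1 of 13 genes of the lid and eIF3. These totals are genes with a start in the promoter table, of which 3.94% (untreated) and 8.89% (induced) were listed over all coding genes. The shared Cops7a peak was lost (0 genes) where 50% of both peaks had to overlap, as the peaks differ 3.22 times in length. The remaining 71 of 88 alternative values stayed within 1.5 times the main count, or within its counting interval, among them the Cops7a ratio scaled by depth (0.995) and the fragments expected at Cops4 (8.96). Another is the induced gene-end count of 2 COP9 genes (Cops4 and Cops7b) at a fold of at least 5, where Cops5 was lost, beside 5.86% of all coding genes. The 71 also include each IgG count and the untreated counts of the lid and eIF3, all of them 0. The untreated gene-end count of the COP9 genes was likewise 0 at each setting except that from transcript starts. A stricter q, fold or window could not have changed a count of 0, so those values say nothing about stability. Depth limits what the untreated and IgG lists can show: Cops5 and Cops7b would have held fewer untreated fragments at equal enrichment than the weakest listed peak.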
